A study of Danio rerio with 94 samples.

Results

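Solute carriers are membrane proteins that move amino acids, neurotransmitters, metabolites, vitamins, metals, nucleosides and drugs across the plasma membrane or the membranes of organelles. The genes described here were the rows of the read table whose symbol starts with SLC and a family number or with SLCO, without the facilitated glucose transporters SLC2A. Of the 3068 genes measured, 84 met this rule, in 28 families, 10 of which held a single measured gene. A scaffold protein that binds ion transporters, SLC9A3R1A, carries the prefix without being a carrier itself and was kept, since the rule went by symbol.

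Zebrafish embryos of the 5D wild-type line were exposed at 20 µM from 6 to 24 hpf to naphthalene or to 1 of 21 alkyl naphthalenes in DMSO, and RNA of whole embryos was collected at 48 hpf. The 22 chemicals were 1-ethyl-, 1-methyl-, 1,2-dimethyl-, 1,3-dimethyl-, 1,4-dimethyl-, 1,4,5-trimethyl-, 1,4,6,7-tetramethyl-, 1,5-dimethyl-, 1,6-dimethyl-, 1,6,7-trimethyl-, 1,7-dimethyl-, 1,8-dimethyl-, 2-butyl-, 2-ethyl-, 2-isopropyl-, 2,3-dimethyl-, 2,4,5-trimethyl-, 2,6-diethyl-, 2,6-diisopropyl-, 2,7-di-tert-butyl- and 2,7-dimethylnaphthalene and naphthalene itself. The tri- and tetramethyl compounds are called below by their substituents alone. Controls received DMSO alone. Each sample was a pool of 6 embryos of normal appearance, collected by exposure vial, with 4 pools of each chemical and 5 control pools. The paper describes 6 vials per treatment, 2 of them kept for morphology, and 5 pools collected from the rest. Some pools of a treatment may therefore share a vial. Since only embryos of normal appearance were taken, affected embryos are outside these measurements. Exposures were made on 2 days with 11 chemicals each, and RNA extraction followed the same division. Sample titles name a day for the control pools only. The paper describes a split of the chemicals by numerical order of internal labels. Chemicals with library numbers up to 11 were therefore taken as day 1 and the others as day 2, so the day of a chemical is inferred. The control held 2 pools of day 1 and 3 pools of day 2.

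Whole-embryo RNA mixes all tissues, so fewer cells of a type and less RNA per cell cannot be told apart. Values are log2 CPM (counts scaled to the size of the library) of TempO-Seq, in which a pair of short detector probes is ligated on each target transcript and the ligated probes are sequenced. A level is therefore the read level of a gene's probes and not a transcript amount, and the order of genes by level is an order of reads. Reads given here and below are counts recovered from the deposited values, after the authors' correction for exposure day. The recovered total was 7.21 to 16.5 M reads per pool (median 10.3 M reads), with 8.14 to 12.7 M reads in the control pools. One read corresponded to between 0.0696 and 0.148 CPM depending on the pool. Genes without reads were listed at -2.39 log2 CPM. Zebrafish keeps many carriers as a and b copies. The probe sequences were not used here, so reads shared between such copies cannot be told apart from reads of each. Roles given below are mostly known from mammals.

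At 48 hpf the mitochondrial ADP/ATP exchanger SLC25A5 had the most reads of the 84 genes, with a mean of 10.05 log2 CPM over the 93 pools. It was followed by the glial glutamate transporter SLC1A3A (8.67), a further ADP/ATP exchanger, SLC25A4 (8.55), the cationic amino acid transporter SLC7A3A (8.15), the equilibrative nucleoside transporter SLC29A1A (7.63) and the glycine transporter SLC6A9 (6.03). These 6 genes were the ones with a mean over 6 log2 CPM, 31 others lay between 3 and 6, 20 between 0 and 3, and 27 at or below 0. Reads were present in every pool for 42 genes. The 18 genes missing from over 40 pools included the serotonin transporter SLC6A4B, the taurine transporters SLC6A6A and SLC6A6B, the bile acid transporters SLC10A1 and SLC10A2 and the vesicular monoamine transporter SLC18A2.

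Level set the precision of every comparison. The median standard error of a log2 fold change was 0.151 for the genes with a mean over 6 log2 CPM and 0.299 for those between 3 and 6. It was 0.909 between 0 and 3 and 0.777 at or below 0. The smaller value at the bottom came from pools that share the value for no reads and does not mark a better measurement.

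**Figure D1:**
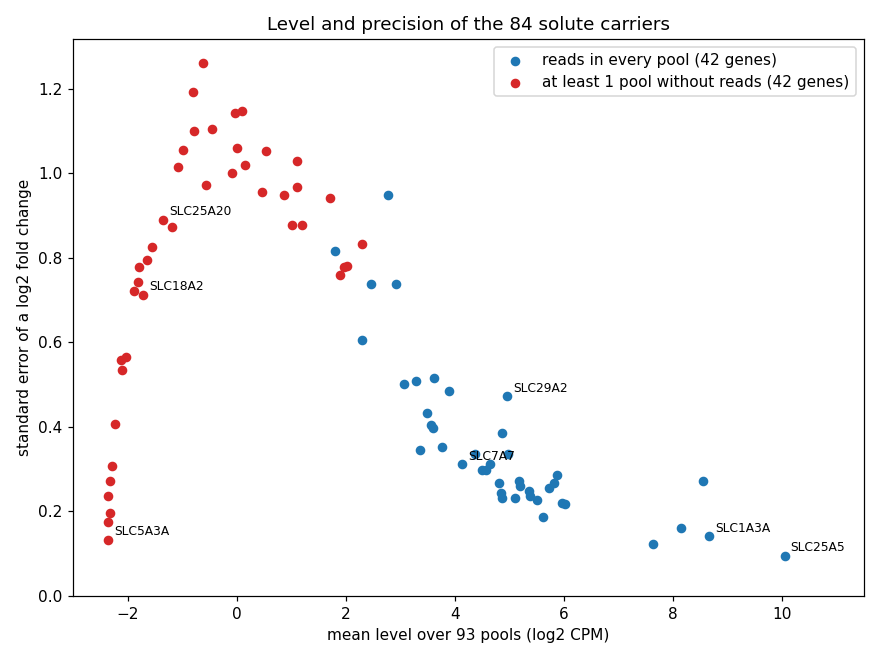
Mean level of each of the 84 solute carriers over 93 pools (x axis, log2 CPM) against the median standard error of its 22 log2 fold changes (y axis). Blue points are the 42 genes with reads in every pool and red points the 42 with at least 1 pool without reads. The error falls with the level on the right side, and on the left it falls again as pools without reads become the rule.

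Within families the levels spanned wide ranges. In SLC7 the mean ran from 8.15 log2 CPM for SLC7A3A to -2.11 for the neutral amino acid transporter SLC7A8B, and in SLC25 from 10.05 for SLC25A5 to -1.34 for the carnitine/acylcarnitine carrier SLC25A20. SLC6 ran from 6.03 for SLC6A9 to -2.36 for the amino acid transporter SLC6A14, which had reads in 1 pool only. The a and b copies also differed in read level. The nucleoside transporter SLC29A1A had a control mean of 7.58 log2 CPM and SLC29A1B 0.81, and the serotonin transporter SLC6A4A had 4.12 and SLC6A4B -0.63.

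Few solute carriers differed between a chemical and the control. Over the 22 chemicals, 2 of 1848 gene by chemical comparisons (0.108%) passed limma's test, for which a difference of 1 or more in either direction on the log2 scale and a Benjamini-Hochberg adjusted p up to 0.05 were required. Over all 3068 genes the share was 0.324%. Both were higher than control: the vesicular monoamine transporter SLC18A2 in the 2,4,5-trimethyl compound and the amino acid exchanger SLC7A7 in 2-butylnaphthalene. Without the fold threshold 3 comparisons passed (0.162%, against 1.2% of all genes), the third being the myo-inositol cotransporter SLC5A3A in 1-ethylnaphthalene. At an unadjusted p under 0.05 there were 134 (7.25%, against 11.4% of all genes), 81 higher and 53 lower. The median log2 fold change was 0 for the solute carriers and -0.01 for all genes.

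How far an absence of change was measured depended on the reads. In 701 of 1848 comparisons (37.9%) the 95% interval of the log2 fold change lay wholly within a 2-fold change in either direction, and the share over all genes was 51.4%. Of the 701, 128 came from the 27 genes at or below 0 log2 CPM, none of them read in every pool. There, pools that share the value for no reads narrow the interval without measuring an absence of change. Genes between 0 and 3 log2 CPM gave 0 of 440. For the 42 solute carriers with reads in every pool it was 573 of 924 (62%). The matching share over all genes with reads in every pool was not computed. By these intervals 14 solute carriers were within 2-fold of control in all 22 chemicals, a count that was not made over all genes. They were SLC25A5, SLC1A3A, SLC7A3A, SLC29A1A, SLC6A9, the glutamine transporters SLC38A3B and SLC38A5B, the thyroxine transporter SLCO1C1, the sulfate transporter SLC26A2, the sodium/proton exchanger SLC9A7, the scaffold SLC9A3R1A and the amino acid exchanger SLC7A6, besides SLC5A5 and SLC6A14, which had hardly any reads. The leucine transporter SLC7A5, the glutamine transporter SLC38A2 and SLC29A2 had no chemical with so narrow an interval. Genes in these lists were chosen after their values were seen.

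**Figure D2:**
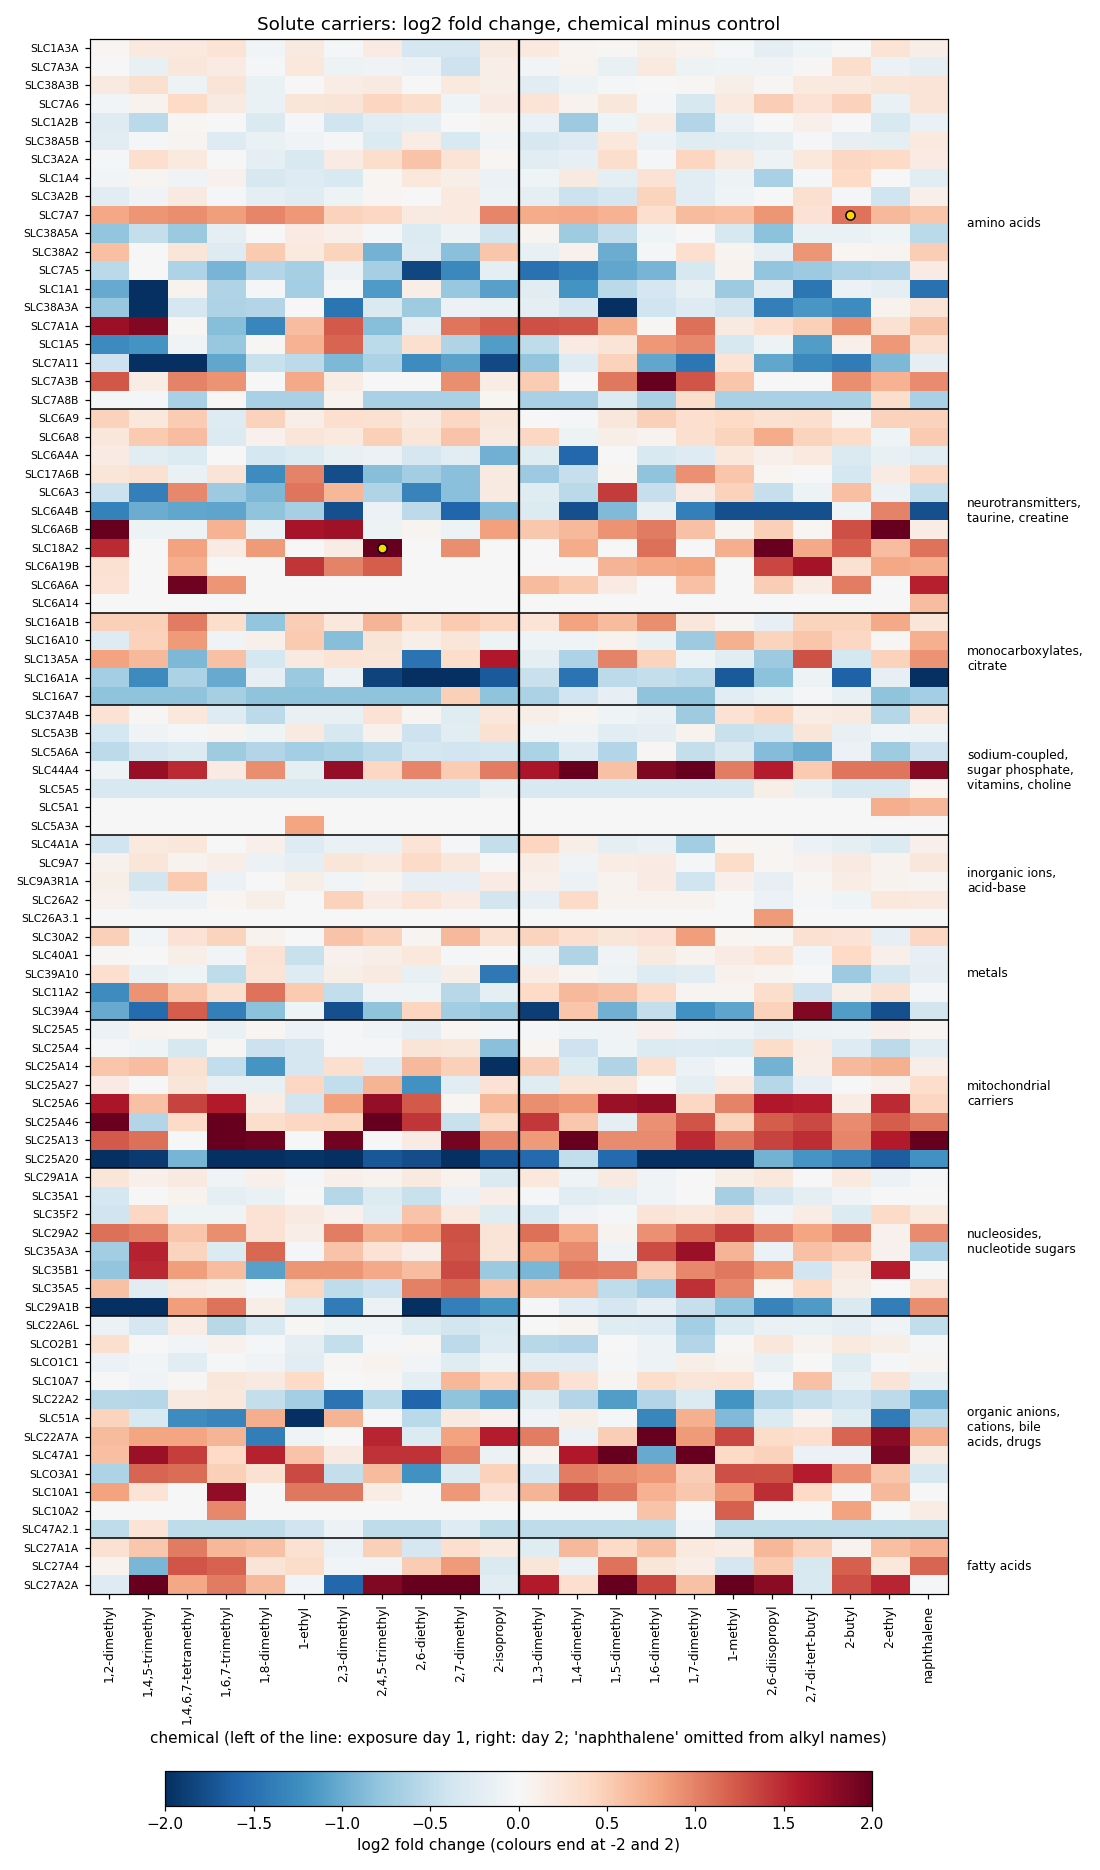
Log2 fold change, chemical minus control, of the 84 solute carriers (rows) in the 22 chemicals (columns, exposure day 1 left of the line and day 2 right of it). Rows are grouped by family number, under the main substrates of the families, and ordered by level within a group. Gold points mark the 2 comparisons that passed the test, SLC18A2 in the 2,4,5-trimethyl compound and SLC7A7 in 2-butylnaphthalene. Strong colours sit mainly in genes of few reads.

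SLC7A7 is the light chain of an exchanger that pairs with SLC3A2 and moves cationic amino acids out of cells against neutral ones. In zebrafish it is also known as a gene that microglia need to settle in the brain. In 2-butylnaphthalene the 4 pools had 4.57, 4.54, 3.96 and 5.32 log2 CPM, against 3.50, 2.70, 4.52, 3.63 and 3.20 in the control pools. The groups overlapped, since 1 control pool lay above 1 exposed pool. The log2 fold change was 1.09 (SE 0.31, limma with Benjamini-Hochberg adjusted p = 0.0494), and 0.522% of all genes passed for this chemical. Against the day 2 control pools alone it was 0.81 with an adjusted p of 0.343. The call was also lost in 73 of the 93 fits that left out a single pool.

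The SLC7A7 mean lay above the control mean in all 22 chemicals, which share the control pools. The fold changes ran from 0.19 in 2,6-diethylnaphthalene to 1.09 in 2-butylnaphthalene, and 14 had an unadjusted p under 0.05. Over the exposed pools SLC7A7 had 2.87 log2 CPM in the lowest, 4.15 in the median and 5.39 in the highest pool, against 2.70 to 4.52 in the control pools. The next largest differences were 0.98 in 2-isopropylnaphthalene (adjusted p = 0.191) and 0.97 in 1,8-dimethylnaphthalene (adjusted p = 0.12). The heavy chains SLC3A2A and SLC3A2B, which SLC7A7 and its relatives need at the surface, had no chemical with an unadjusted p under 0.05.

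Vesicular monoamine transporter SLC18A2 loads dopamine, serotonin and noradrenaline into synaptic vesicles. In the 2,4,5-trimethyl compound the 4 pools had 9, 14, 16 and 27 reads, against 0 reads in each of the 5 control pools. Against a floor of 3 reads over the control pools together, the level of the 4 exposed pools together was 27.2-fold higher. The floor allows for counting error of the control pools only and treats the corrected counts as reads as sequenced. Counting error of the exposed pools and the spread between pools are not covered, so 27.2-fold is not a lower bound. The fitted log2 fold change was 3.21 (SE 0.71, limma with Benjamini-Hochberg adjusted p = 0.0107) and depends on the value given to pools without reads. For this chemical 0.391% of all genes passed. With the day 1 control pools alone the adjusted p was 0.0901, and without pool E of the exposed group it was 0.0523.

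Reads of SLC18A2 were scattered over the other groups. In all, 28 of the 88 exposed pools had any, in 15 chemicals, and the 2,4,5-trimethyl compound was the one chemical with reads in all 4 pools. In 2,6-diisopropylnaphthalene the 4 pools had 15, 9, 6 and 0 reads, a difference with an adjusted p of 0.212. The 5 measured neuron and glia markers outside this gene family summed to 844 to 922 CPM in the 2,4,5-trimethyl compound (median 885). In control pools the sum was 757 to 942 CPM (median 780), so the ranges overlapped. The markers did not move in 1 direction. PLP1A, the marker of this list with the most reads, differed by 0.25. At a mean of 9.11 log2 CPM over all pools, against 6.95 for NEUROD1 and 6.94 for GFAP, it weighs most in the sum. SNAP25A (-0.13), GFAP (-0.02), NEUROD1 (-0.26) and MBPA (-1.75), the last without reads in most pools, lay below control. None of these differences passed the adjustment. The part of neuron and glia content in the SLC18A2 result was not tested.

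SLC5A3A, which takes up the osmolyte myo-inositol, had 7, 1, 1 and 0 reads in the 4 pools of 1-ethylnaphthalene. It had no reads in any other of the 93 pools, the 5 control pools included. The fitted log2 fold change of 0.79 (limma with Benjamini-Hochberg adjusted p = 0.000353) therefore rests on 9 reads, 7 of them in 1 pool. For this chemical 0.163% of all genes passed without a fold threshold. With voom weights on the recovered reads the adjusted p was 0.113.

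**Figure D3:**
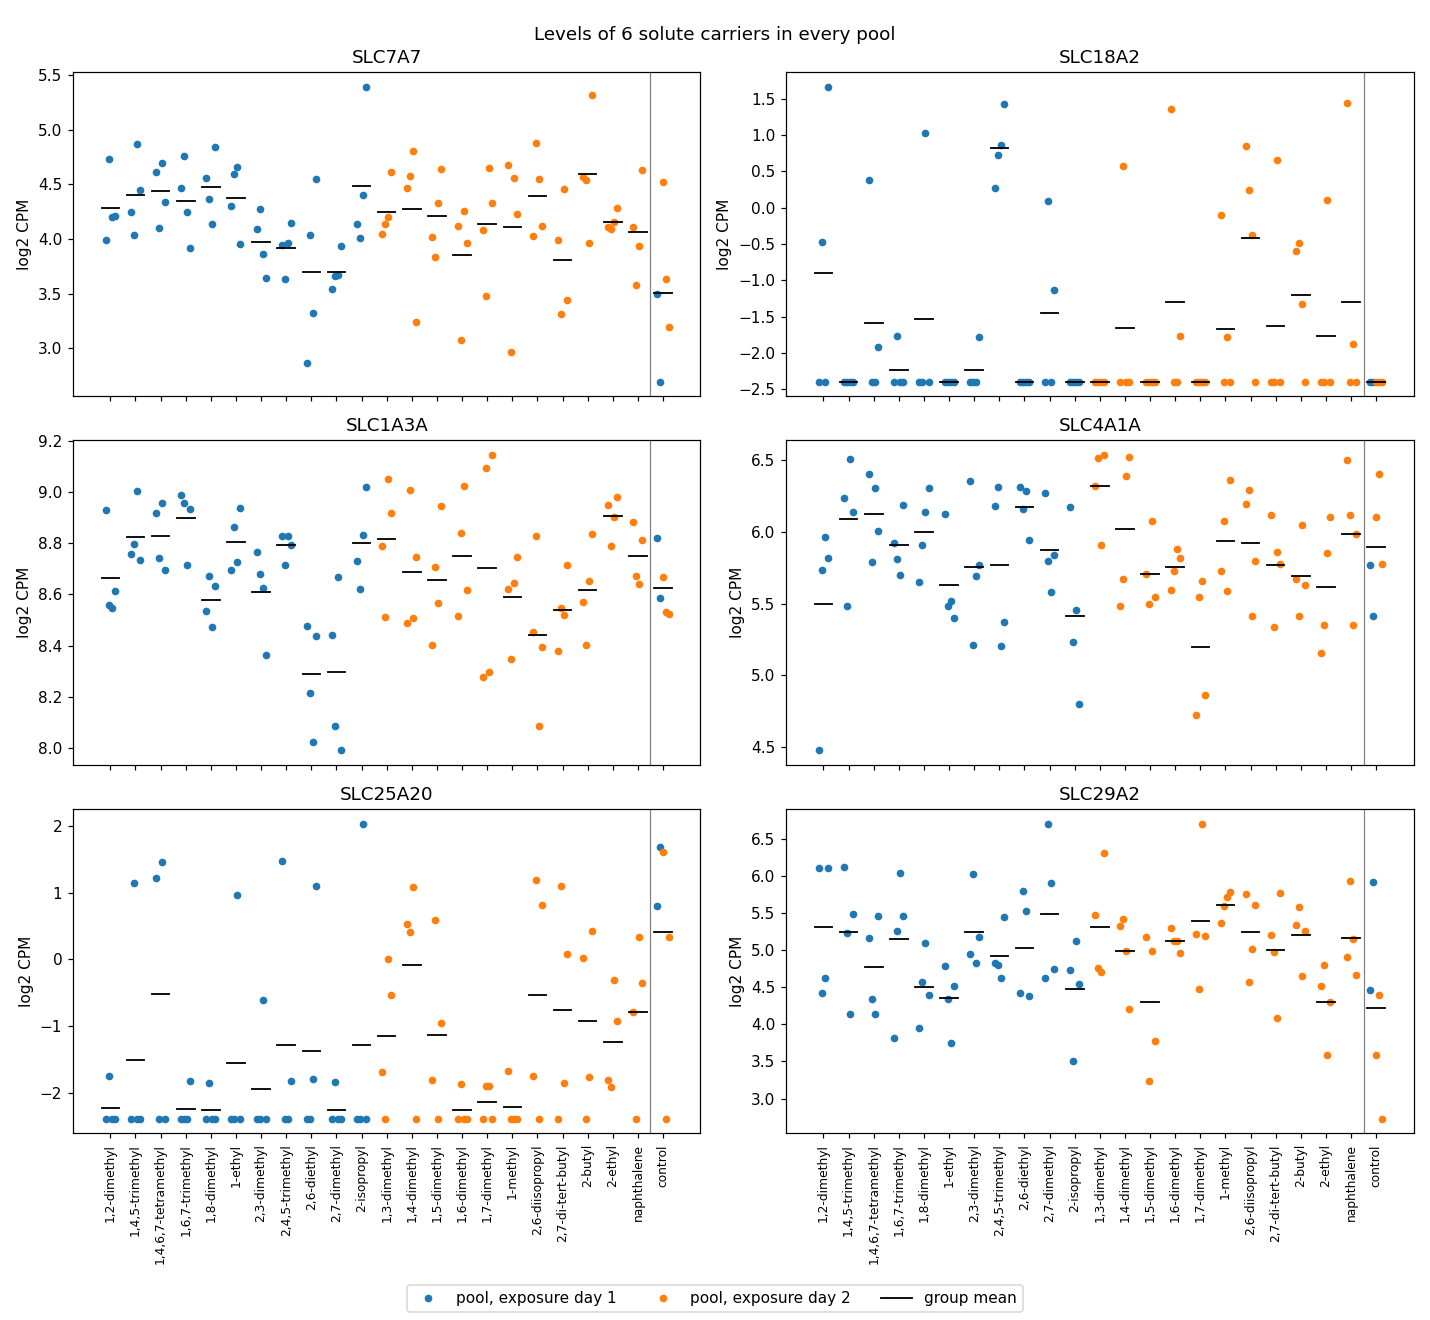
Log2 CPM of SLC7A7, SLC18A2, SLC1A3A, SLC4A1A, SLC25A20 and SLC29A2 in every pool (points, coloured by exposure day) with the group mean (lines), for the 22 chemicals and the control at the right. SLC18A2 is at -2.39, the value for no reads, in every control pool, and SLC1A3A is lowest in 2,6-diethyl- and 2,7-dimethylnaphthalene.

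Whether the exposed pools as a whole differed from control was asked with the mean of the 22 chemicals minus the control. None of the 84 solute carriers passed an adjusted p of 0.05 by limma with Benjamini-Hochberg adjustment, while 2.97% of all genes did. At an unadjusted p under 0.05 there were 5 (5.95%, against 13.3% of all genes). Voom gave 4 unadjusted and 0 adjusted, and its share over all genes was not computed. Of the 84 genes 46 had a mean above control and 38 below. The 5 genes were SLC7A7, SLC29A2 and SLC25A13, with means above control, and SLC25A20 and SLC47A2.1, with means below.

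SLC7A7 differed by 0.67 log2 in this mean (SE 0.21, adjusted p = 0.0726). On day 1 alone the 44 exposed pools averaged 4.19 log2 CPM and the 2 control pools 3.10, a difference of 1.09 (SE 0.29, adjusted p = 0.0544). On day 2 the 44 exposed pools averaged 4.17 and the 3 control pools 3.79, a difference of 0.38 (SE 0.30, adjusted p = 0.755). The direction was the same on both days and the size differed, a gap that was not tested. Leaving out control pool 2A, the highest of the 5 at 4.52 log2 CPM, brought the pooled SLC7A7 difference to 0.92 (adjusted p = 0.0153), past the threshold, and leaving out control pool 1C, the lowest, to 0.47 (adjusted p = 0.44).

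SLC29A2, an equilibrative transporter of nucleosides and nucleobases, also lay above the control mean in all 22 chemicals, with 10 at an unadjusted p under 0.05. The fold changes ran from 0.07 in 1,5-dimethylnaphthalene to 1.40 in 1-methylnaphthalene (SE 0.47, limma with Benjamini-Hochberg adjusted p = 0.11). In 1-methylnaphthalene the pools had 5.37, 5.59, 5.73 and 5.78 log2 CPM, against 4.46, 5.93, 3.59, 4.40 and 2.73 in the control pools, so that a single control pool, 1C, lay above all 4. Without that control pool SLC29A2 passed the test in 3 chemicals, and the share over all genes in that fit was not computed. The mean over the 22 chemicals differed by 0.79 (SE 0.32, adjusted p = 0.223). This did not hold within both days. On day 1 the exposed pools averaged 4.96 and the 2 control pools 5.19, a difference of -0.24 (SE 0.52, adjusted p = 0.923). On day 2 they averaged 5.06 and the 3 control pools 3.57, a difference of 1.49 (SE 0.37, adjusted p = 0.0392). Of all genes 0.913% passed on day 1 and 0.88% on day 2, and SLC29A2 was the only solute carrier among them.

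SLC25A20 carries acylcarnitines into mitochondria for fatty acid oxidation. Its mean was below the control mean in all 22 chemicals, with 11 at an unadjusted p under 0.05 and none adjusted. The control pools had 13, 27, 30, 0 and 13 reads, and reads were found in 43 of the 88 exposed pools. The lowest group, 1,6-dimethylnaphthalene, had 0, 1, 0 and 0 reads. The 22 chemicals together differed by -1.85 (SE 0.61, limma with Benjamini-Hochberg adjusted p = 0.0837), with -2.92 on day 1 (adjusted p = 0.163) and -1.06 on day 2 (adjusted p = 0.702). Without control pool 2B, the one with no reads, 5 chemicals passed the test for SLC25A20, so that this single pool decides the calls. The share over all genes in that fit was not computed.

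For the aspartate/glutamate carrier SLC25A13, which serves the malate-aspartate shuttle, the pattern was the opposite. No control pool had reads, against 54 of the 88 exposed pools. In naphthalene the pools had 9, 13, 11 and 9 reads and in 1,4-dimethylnaphthalene 18, 2, 14 and 32, with adjusted p of 0.3 and 0.0775. The difference over the 22 chemicals was 1.27 (adjusted p = 0.334). SLC47A2.1, of the family that exports organic cations and drugs, had reads in 6 exposed pools and 1 control pool. Its difference of -0.42 (adjusted p = 0.375) was 0.14 on day 1 and -0.82 on day 2.

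**Figure D4:**
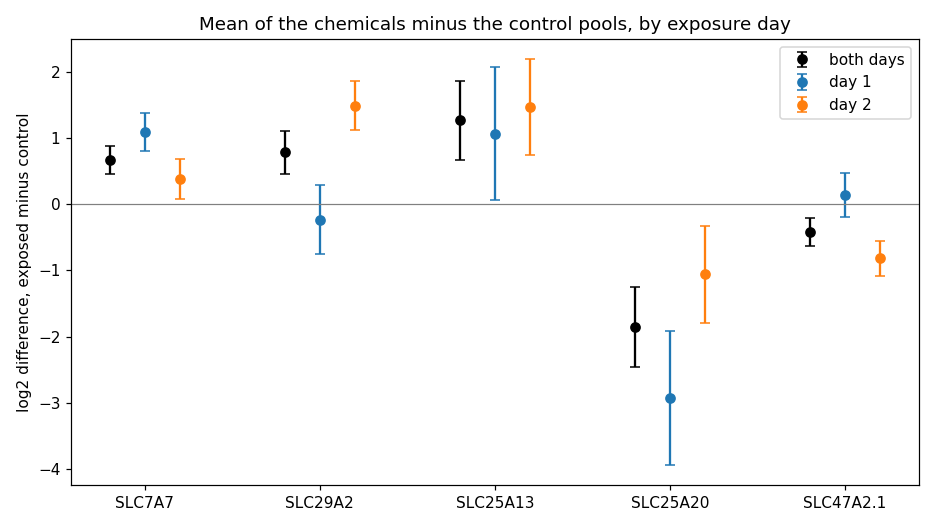
Log2 difference between exposed and control pools (y axis) for the 5 solute carriers with an unadjusted p under 0.05, as points with the standard error as bars. Black is the mean of all 22 chemicals against 5 control pools, blue is day 1 alone (2 control pools) and orange day 2 alone (3 control pools). SLC29A2 lies at -0.24 on day 1 and at 1.49 on day 2.

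Detection of some solute carriers differed between the days in exposed pools also after the authors' correction. SLC25A20 had reads in 14 of the 44 exposed pools of day 1 and in 29 of the 44 of day 2. SLC25A13 had 20 and 34, the vesicular glutamate transporter SLC17A6B 23 and 35, and the organic anion transporter SLCO3A1 26 and 41. SLC1A5, SLC7A11 and SLC44A4, chosen with these 4 after their values were seen, had at least 10 pools more with reads on day 2 as well. No solute carrier had at least 10 more on day 1. The share over all genes was not computed, so this gap cannot be read as particular to the solute carriers. Each chemical was exposed on 1 day only, so for the solute carriers named here a chemical and its day cannot be told apart by detection.

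Variation among all 23 groups, asked with limma's moderated F test, passed an adjusted p of 0.05 for 2 of 84 solute carriers (2.38%), against 7.95% of all genes. They were SLC5A3A (adjusted p = 0.0152), by its 9 reads, and SLC1A3A (adjusted p = 0.022). At an unadjusted p under 0.05 there were 13 (15.5%, against 22.7% of all genes). After SLC5A3A and SLC1A3A, the smallest adjusted p were those of the fatty acid transporter and acyl-CoA ligase SLC27A2A (0.0547), the glucose 6-phosphate carrier SLC37A4B (0.0584) and SLC18A2 (0.0636).

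SLC1A3A clears glutamate and aspartate from synapses and is typical of astrocytes and radial glia. It had 8.48, 8.21, 8.02 and 8.44 log2 CPM in 2,6-diethylnaphthalene and 8.44, 8.08, 8.67 and 7.99 in 2,7-dimethylnaphthalene, against 8.82, 8.59, 8.67, 8.53 and 8.52 in the control pools. All 4 pools of 2,6-diethylnaphthalene lay below all control pools, and 2,7-dimethylnaphthalene overlapped them by its highest pool. The highest groups were 2-ethylnaphthalene, with 8.95, 8.79, 8.90 and 8.98, and the 1,6,7-trimethyl compound, with 8.99, 8.96, 8.71 and 8.94. No single chemical passed against control. The fold changes ran from -0.34 in 2,6-diethylnaphthalene (SE 0.14, adjusted p = 0.217) to 0.28 in 2-ethylnaphthalene (adjusted p = 0.503), and all 22 intervals stayed within a 2-fold change.

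Both groups low in SLC1A3A were exposed on day 1. Within day 1 the F test gave an adjusted p of 0.00428 for SLC1A3A, and within day 2 it gave 0.686. Of all genes 6.91% passed within day 1 and 3.16% within day 2, and of the solute carriers SLC1A3A, SLC18A2 and SLC7A7 passed on day 1 and none on day 2. Leaving out pool D of 2,6-diethylnaphthalene, or pool C or E of 2,7-dimethylnaphthalene, gave adjusted p of 0.0604, 0.0533 and 0.0538 for SLC1A3A over both days. The 5 neuron and glia markers outside this gene family summed to 840 to 916 CPM in 2,6-diethylnaphthalene. In 2,7-dimethylnaphthalene the sum was 808 to 931 CPM, against 757 to 942 CPM in the control pools. PLP1A weighs most in these sums, at a mean of 9.11 log2 CPM over the 93 pools, against 6.94 for GFAP. In 2,6-diethyl- and 2,7-dimethylnaphthalene the glial filament gene GFAP differed by -0.33 (adjusted p = 0.331) and -0.07 (adjusted p = 0.949), and PLP1A, the marker of this list with the most reads, by 0.28 (adjusted p = 0.234) and 0.17 (adjusted p = 0.567). The rest of the list was SNAP25A (-0.08 and 0.04), NEUROD1 (-0.12 and -0.08) and MBPA (-1.75 in both, without reads in most pools). None of the list passed the adjustment. Of the 26 markers of all tissues measured, PAX2A, of pronephros and midbrain-hindbrain boundary, passed an adjusted p of 0.05 by limma in both chemicals (-0.57, adjusted p = 0.0423, and -0.65, adjusted p = 0.0102). The other measured pronephros marker, WT1A, lay above control in both (2.47, adjusted p = 0.253, and 2.55, adjusted p = 0.244). The liver gene CP passed in 2,7-dimethylnaphthalene (-0.67, adjusted p = 0.0321). Of the other liver, pancreas and gut markers there, FABP10A (-1.47), PRSS1 (-2.05) and HNF4A (-0.64) lay below control. TFA (0.04), APOA2 (0.27) and INS (0.10) lay above it, and none of these passed the adjustment. The part of these tissues in the SLC1A3A result was not tested. Across the 93 pools the levels most like SLC1A3A included those of MYCA (Pearson's r 0.644) and ATP1A1A.1 (0.622), given as a description over pools that share library and day.

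Chemicals related by a named change in structure were compared directly in 24 pairs exposed on the same day at the same concentration, 8 on day 1 and 16 on day 2. For the solute carriers 1 of 2016 comparisons passed (0.0496%), against 0.124% of all genes. At an unadjusted p under 0.05 there were 143 (7.09%, against 9.09% of all genes). In 715 comparisons (35.5%, against 49.8% over all genes) the 95% interval of the difference lay within a 2-fold change. For the 42 solute carriers with reads in every pool it did in 579 of 1008 (57.4%), and the matching share over all genes was not computed. With p-values adjusted over all genes and all 24 pairs at once 1 comparison passed as well, but a different one.

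The anion exchanger SLC4A1A (band 3) is the main membrane protein of erythrocytes and swaps chloride for bicarbonate. It was lower in 1,7-dimethylnaphthalene than in 1,3-dimethylnaphthalene, which differ in the ring that carries the second methyl group. The pools had 4.72, 5.55, 5.66 and 4.86 log2 CPM in 1,7-dimethylnaphthalene, against 6.32, 6.52, 5.91 and 6.54 in 1,3-dimethylnaphthalene, with no overlap. The difference was -1.12 (SE 0.28, 95% interval -1.68 to -0.56, limma with Benjamini-Hochberg adjusted p = 0.0153), and 0.359% of all genes passed in this pair. Adjusted over all 24 pairs the p was 0.0577. It was 0.119 without pool B of 1,7-dimethylnaphthalene and 0.0732 without pool E of 1,3-dimethylnaphthalene. In the control pools SLC4A1A had 5.77, 5.41, 6.11, 6.41 and 5.78 log2 CPM. The control mean lay between the means of the 2 chemicals, and neither chemical passed against control.

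The other 3 measured erythrocyte markers were read in every pool. Haem synthesis gene ALAS2 differed by -1.21 between 1,7- and 1,3-dimethylnaphthalene (SE 0.48, adjusted p = 0.15), the embryonic globin HBAE3 by -0.40 (SE 0.29, adjusted p = 0.556) and the carbonic anhydrase CAHZ by 0.05 (SE 0.36). Their summed level was 90.2 to 283 CPM (median 221) in 1,7-dimethylnaphthalene, against 208 to 306 CPM (median 252) in 1,3-dimethylnaphthalene. HBAE3 weighs most in this sum, at a mean of 7.45 log2 CPM over the 93 pools, against 4.62 for CAHZ and 4.01 for ALAS2. Depth differed too, with 11.1 to 14.0 M reads per pool in 1,7-dimethylnaphthalene, against 8.52 to 10.17 M reads in 1,3-dimethylnaphthalene. Of the 26 markers of all tissues, the muscle actin ACTA1A (-0.95, adjusted p = 0.0101) and the insulin gene INS (-0.72, adjusted p = 0.0314) also passed an adjusted p of 0.05 by limma in this pair. The other measured muscle marker, TNNT3B, differed by -0.24 (adjusted p = 0.805). Of the other markers in the list of INS, FABP10A (-1.26), CP (-0.51), HNF4A (-0.51) and PRSS1 (-0.38) were lower. TFA (0.19) and APOA2 (0.44) were higher, and none of these passed the adjustment. The part of erythrocyte, muscle or pancreas content or of depth in the SLC4A1A difference was not tested. Over the 93 pools HBAE3 was the gene most like SLC4A1A (Pearson's r 0.549), a description over pools that share library and day.

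SLC4A1A in 1,7-dimethylnaphthalene was also lower than in the other dimethyl isomers it was paired with. The differences were -0.82 from 1,4-dimethylnaphthalene (adjusted p = 0.122), -0.51 from 1,5-dimethylnaphthalene and -0.56 from 1,6-dimethylnaphthalene. Set against 1-methylnaphthalene the difference was -0.74 (adjusted p = 0.143). All share the 4 pools of 1,7-dimethylnaphthalene.

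SLC37A4B, the carrier of glucose 6-phosphate into the endoplasmic reticulum, where the last step of glucose release takes place, was also low in 1,7-dimethylnaphthalene. The pools had 4.39, 3.96, 3.91 and 4.18 log2 CPM, against 5.21, 4.90, 5.35 and 4.97 in 1-methylnaphthalene, which lacks the second methyl group. The groups did not overlap. The difference was -0.997 (SE 0.28, limma with Benjamini-Hochberg adjusted p = 0.0387), just short of the fold threshold, so that it was not counted among the calls. It was -0.83 against 1,3-dimethylnaphthalene (adjusted p = 0.098), -0.76 against 1,4-dimethylnaphthalene, -0.63 against 1,5-dimethylnaphthalene and -0.58 against 1,6-dimethylnaphthalene. The control pools had 4.43 to 5.21 log2 CPM (mean 4.82), below every pool of 1-methylnaphthalene in the mean. Against control 1,7-dimethylnaphthalene differed by -0.71 and did not pass (limma with Benjamini-Hochberg adjusted p = 0.0991). Depth was 11.1 to 14.0 M reads per pool in 1,7-dimethylnaphthalene and 8.64 to 10.3 M reads in 1-methylnaphthalene. Its part in the SLC37A4B difference was not tested. Among chemicals with a chain at position 2, SLC37A4B differed by 0.76 in 2-butyl- minus 2-ethylnaphthalene (adjusted p = 0.285) and by -0.82 in 2-ethylnaphthalene minus naphthalene (adjusted p = 0.296), and neither passed.

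The comparison that passed the joint adjustment was SLC18A2 in the 1,4,5- minus the 2,4,5-trimethyl compound, which share methyl groups at positions 4 and 5 and differ in the place of the third. The pools had 0, 0, 0 and 0 reads in the 1,4,5-trimethyl compound, against 9, 14, 16 and 27 in the 2,4,5-trimethyl compound. The fitted difference was -3.21 (95% interval -4.71 to -1.72), with an adjusted p of 0.0507 within the pair and 0.0332 over all pairs. SLC5A3A in 2-isopropyl- minus 1-ethylnaphthalene gave -0.79 (adjusted p = 0.0012), from the 9 reads described above. SLC27A2A in 2,7- minus 2,3-dimethylnaphthalene gave the largest of these differences, 4.05 (SE 1.00, adjusted p = 0.199). Its pools had 86, 51, 26 and 73 reads in 2,7-dimethylnaphthalene, against 1, 1, 6 and 0 in 2,3-dimethylnaphthalene, with no overlap, while the control pools had 0 to 35.

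**Figure D5:**
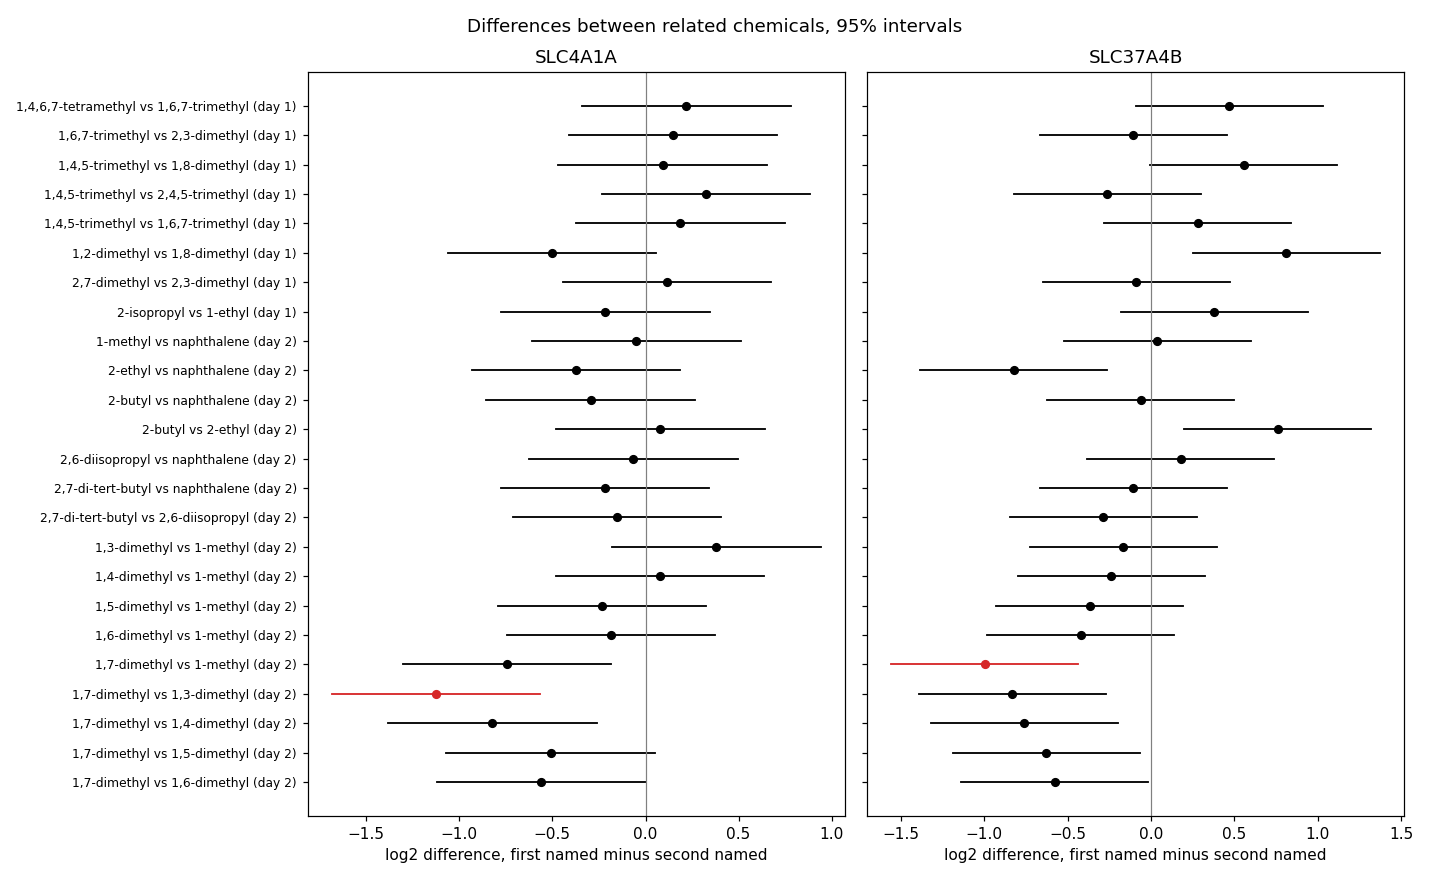
Log2 difference (x axis) of SLC4A1A (left) and SLC37A4B (right) between related chemicals in 24 pairs (rows, first named minus second named), as points with 95% intervals. Red marks an adjusted p of at most 0.05 within a pair. All 5 pairs with 1,7-dimethylnaphthalene as the first named lie below 0 for both genes.

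The genes were grouped by family number, and each group is named for the main substrates of its families. A gene stayed with its family, so the amino acid transporter SLC6A14 is among carriers of neurotransmitters, taurine and creatine. The scaffold SLC9A3R1A was counted with carriers of inorganic ions, and the heavy chains SLC3A2A and SLC3A2B with amino acid carriers. Amino acid carriers were the largest group with 20 genes, 14 of them read in every pool. They had 1 of 440 comparisons called (SLC7A7), 17 higher and 13 lower at an unadjusted p under 0.05 (6.82%, against 11.4% of all genes), and a median log2 fold change of -0.03. Most of the 17 higher comparisons were SLC7A7, in chemicals that share the control pools. SLC7A3A had 8.25, 8.74, 8.27 and 8.80 log2 CPM in 2-butylnaphthalene, against 7.98 to 8.42 in the control pools, and its difference of 0.36 did not pass. SLC7A5 differed by -1.82 in 2,6-diethylnaphthalene with an adjusted p of 0.356. The cystine/glutamate exchanger SLC7A11, which feeds glutathione synthesis, had 0, 0, 1 and 0 reads in the 1,4,6,7-tetramethyl compound, against 43, 39, 7, 33 and 1 in the control pools (adjusted p = 0.268). The lowest SLC7A11 control pool held as few reads as the highest exposed pool. SLC7A5 and SLC7A11 were chosen after their values were seen.

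Carriers of neurotransmitters, taurine and creatine comprised 11 genes, grouped by family number, of which 3 were read in every pool. They had 1 of 242 comparisons called (SLC18A2), with 22 higher and 7 lower at an unadjusted p under 0.05 (12.0%, against 11.4% of all genes). SLC6A9, which takes up glycine, had 6 of these, all higher, with a largest difference of 0.50 in the 1,4,6,7-tetramethyl compound. There its pools had 5.92, 6.54, 6.24 and 6.40 log2 CPM, against 5.50 to 6.18 in the control pools. The creatine transporter SLC6A8 had 5, all higher, with 0.74 in 2,6-diisopropylnaphthalene (SE 0.26, adjusted p = 0.196). Its pools there, at 5.87, 5.52, 5.47 and 5.76, lay above all 5 control pools, at 4.63 to 5.44. Of the 7 lower comparisons SLC6A4B gave 6. It had no reads in any pool of those 6 chemicals, which were 1-methyl-, 1,4-dimethyl-, 2,3-dimethyl-, 2,6-diisopropyl- and 2,7-di-tert-butylnaphthalene and naphthalene, against 0, 18, 15, 0 and 8 reads in the control pools, so the SLC6A4B groups overlapped at 0. SLC6A4A had 3.42, 2.36, 0.50 and 3.93 log2 CPM in 1,4-dimethylnaphthalene, against 3.76 to 4.65 in the control pools (log2 fold change -1.57, adjusted p = 0.0836), and was chosen after its values were seen.

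Mitochondrial carriers comprised 8 genes, with 7 comparisons higher and 14 lower at an unadjusted p under 0.05 (11.9%, against 11.4% of all genes) and none called of 176. SLC25A20 made up 11 of the 14. SLC25A4, the ADP/ATP exchanger typical of muscle, had 7.66, 7.83, 7.82 and 8.13 log2 CPM in 2-isopropylnaphthalene, against 8.32, 8.80, 8.46, 9.34 and 8.55 in the control pools. The groups did not overlap, and the difference of -0.83 (SE 0.27) had an adjusted p of 0.2 by limma with Benjamini-Hochberg adjustment. SLC25A5 stayed between -0.19 and 0.11 of control in all 22 chemicals.

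Carriers of nucleosides and nucleotide sugars comprised 8 genes, with 11 comparisons higher and 6 lower of 176 at an unadjusted p under 0.05 (9.66%, against 11.4% of all genes), of which SLC29A2 gave 10. SLC29A1B had 0, 0, 0 and 1 reads in 2,6-diethylnaphthalene, against 17, 26, 19, 27 and 2 in the control pools (adjusted p = 0.114). The Golgi carrier of CMP-sialic acid SLC35A1 differed by -0.67 in 1-methylnaphthalene with an adjusted p of 0.175.

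Carriers of organic anions and cations, bile acids and drugs, the group through which many foreign compounds enter or leave cells, comprised 12 genes with 6 higher and 4 lower of 264 comparisons at an unadjusted p under 0.05, and none called. This was the share of 3.79%, against 11.4% of all genes. The organic anion transporter SLC22A6L had 4.87, 5.42, 5.26 and 5.50 log2 CPM in 1,7-dimethylnaphthalene, against 5.84, 5.75, 6.41, 6.35 and 5.35 in the control pools (log2 fold change -0.68, adjusted p = 0.103). The exporter SLC47A1 had 24, 55, 18 and 41 reads in the same chemical, against 1, 1, 25, 0 and 1 in the control pools (log2 fold change 2.84, adjusted p = 0.116), and was chosen after its values were seen. The bile acid carrier subunit SLC51A had 1, 4, 38 and 23 reads in 1-ethylnaphthalene, against 17 to 69 in the control pools (adjusted p = 0.421).

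Metal carriers (5 genes) and carriers of inorganic ions (5 genes) had 2 and 4 comparisons higher and 1 each lower at an unadjusted p under 0.05, of 110 each. These were 2.73% and 4.55%, against 11.4% of all genes. The zinc exporter SLC30A2 had 6.90, 6.32, 6.09 and 6.45 log2 CPM in 1,7-dimethylnaphthalene, against 4.98, 5.73, 5.52, 5.68 and 6.15 in the control pools. The difference of 0.83 (SE 0.29) had an adjusted p of 0.0687, and SLC30A2 was chosen after its values were seen. Monocarboxylate and citrate carriers (5 genes) had 3 higher and 3 lower of 110 (5.45%, against 11.4% of all genes). The 3 higher were all SLC16A1B and the 3 lower all SLC16A1A, the b and a copies of a lactate and pyruvate transporter. SLC16A1A was also chosen after its values were seen.

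The 3 fatty acid transport proteins had 6 comparisons higher and 0 lower of 66 at an unadjusted p under 0.05 (9.09%, against 11.4% of all genes in either direction), 5 of them SLC27A2A and 1 SLC27A1A. SLC27A2A differed by 2.48 in 2,7-dimethylnaphthalene (SE 0.95, adjusted p = 0.165). Sodium-coupled carriers, sugar phosphate carriers and carriers of vitamins and choline (7 genes) had 3 higher and 4 lower of 154 (4.55%, against 11.4% of all genes).

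Other transporters were set beside the solute carriers from lists of family names. Among 18 ABC transporters 1 of 396 comparisons passed (0.253%, against 0.324% of all genes). It was the translation factor ABCF3 in 1,3-dimethylnaphthalene (-2.38, limma with Benjamini-Hochberg adjusted p = 0.0294). None passed among 3 subunits of the sodium-potassium ATPase, 5 subunits of the V-type proton ATPase and 4 aquaporins. In the 7 facilitated glucose transporters SLC2A 13 of 154 comparisons passed (8.44%). All 13 were SLC2A1B, higher, against the same control pools, with log2 fold changes of 1.98 to 3.72. The solute carriers other than SLC2A thus had 2 of 1848 called (0.108%) in the same fit, and no test of the difference between the lists was made.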

How the data were processed

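The deposited values are log2 CPM. The authors counted reads with TempO-SeqR, summed the probes of a gene, corrected counts for exposure day with ComBat_seq and scaled them to the upper quartile in edgeR (no version given; build GRCz11, per the labels). They removed control day 1 pool B, so 93 pools were analysed. No column was left unused. Their comparison table (log2 fold changes, p-values, adjusted p-values and limma scores) was not used. Whole counts were recovered for 100% of values (tolerance 0.02 reads) and totals serve as depth. They are counts after the correction for day and not reads as sequenced. No pools were identical.

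Limma 3.58.1 in R 4.3.3 was fitted to all 3068 genes in 93 pools and 23 groups without covariates, with Benjamini-Hochberg adjustment over all genes of a comparison. A call required a log2 fold change of 1 or more in either direction and an adjusted p up to 0.05. The mean of 22 chemicals and the moderated F test had no fold threshold. P-values measure the spread between pools. The fit was tested on simulated counts in which only genes with many reads were changed and no day effect was added. That test therefore does not cover genes of few reads. Named were genes with a call, then those of smallest F p up to 25, then the highest and lowest of families with 3 or more members. Others are marked. Members, pairs and lists were chosen with earlier results of these data known. Of the 84 symbols 60 matched an Ensembl gene. No genome of the authors' build was at hand, so no coordinates or sequences are given.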

Additional observations from a re-analysis of the deposited data

Results flagged for a closer look

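SLC4A1A differed between 1,7- and 1,3-dimethylnaphthalene by -1.12 on the log2 scale in a direct test of the 2 chemicals, and was the only solute carrier to pass both the fold threshold and the adjustment within a pair (limma with Benjamini-Hochberg adjusted p = 0.0153). Adjusted over all 24 pairs it did not pass (0.0577) and SLC18A2 did (0.0332), and SLC37A4B and SLC5A3A had adjusted p of 0.0387 and 0.0012 within a pair below the fold threshold. Dixon's criterion was applied to 23 of the gene and group combinations described above. Of these 0 had a single pool far from the others, where chance would give about 1 in 20. The count does not cover every group described, so it does not show that far pools were absent from the rest. The lowest groups of SLC25A20, SLC29A1B and SLC7A11 were not among the 23. Each had reads in a single pool. The other pools of these groups share the value for no reads, so by this criterion the single pool is far from them.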

How the results depend on the processing

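The 2 calls over 22 chemicals became 1 with a filter on low values (mean log2 CPM of at least 1, which removes SLC18A2 and SLC5A3A from testing), an intensity trend or a replicate block, and ran from 0 to 6 when single pools were left out (0 without pool E of the 2,4,5-trimethyl compound, 4 without control pool 1C or 2A, 6 without 2B, 1 without 1A). Same-day controls also gave 2, both SLC29A2 (in 1-methyl- and 1,7-dimethylnaphthalene), and voom gave SLC18A2 and SLC35A3A in 1,7-dimethylnaphthalene. The call of SLC7A7 in 2-butylnaphthalene was lost in 5 of 8 alternatives (adjusted p 0.0365 to 0.359). The pair count of 1 became 3 with separate fits, voom or an intensity trend, 2 with pools centred on their median or a replicate block, and 0 to 3 without single pools (0 without pool E of 1,3-dimethylnaphthalene). Calls added in several fits without a single pool included SLC47A1 in 1,7- minus 1,6-dimethylnaphthalene. SLC18A2 in the 1,4,5- minus the 2,4,5-trimethyl compound was also among them. The F test count of 2 ran from 1 to 5 without single pools. For the alternative fits with both days and the fits without single pools the shares over all genes were not computed. Changes in these counts therefore cannot be read as particular to the solute carriers. SLC5A3A lost its F call in 5 of 7 alternatives. The mean of 22 chemicals gave 0 in each alternative with both days and 0 to 1 without single pools. Exposure days analysed on their own, chosen after seeing the data, gave an F count of 0 on day 2 and a mean count of 1 on day 2, and SLC29A2 turned to -0.237 on day 1, where SLC47A2.1 also turned, to 0.14.

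Pool letters did not pair the samples: the median correlation of deviations was 0.00148 for the same letter, and 0.362% of 828 same-letter pairs exceeded 0.1. With the letter as a replicate block the calls were 1 over 22 chemicals, 2 over the pairs, 3 by F and 0 in the mean. The shares over all genes in that fit were not computed.

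Depth limits the 42 genes with pools without reads, where the value set for no reads shapes fold changes and errors. With 5 control pools, 2 of them on day 1, a single control pool can decide a call. The spread of control pools enters all 22 comparisons at once. Correction for day was made by the authors before deposit, and its effect on zero reads was not tested.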
